A study of Homo sapiens with 2 samples.

Results

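The genes described here encode the proteins of the cytosolic ribosome. They were all autosomal protein-coding genes of RefSeq (assembly GRCh38.p14) whose symbols are RPL or RPS followed by digits, together with RPLP0, RPLP1, RPLP2 and RPSA. Paralogues with the suffix L, the RPS6K kinases and read-through genes were left out. The rule gave 73 genes of 19126 autosomal protein-coding genes, 43 for the large (60S) and 30 for the small (40S) subunit. No measured value entered the rule. PHF8 binding was profiled by chromatin immunoprecipitation and sequencing (ChIP-seq) with an antibody to PHF8 in RKO cells, a line derived long ago from a human colon carcinoma. In one condition the cells were transfected with the vector, in the other with an APOC2 overexpression plasmid. APOC2 encodes an apolipoprotein of blood plasma. The labels do not say whether the transfection was transient or stable, and they give no level of APOC2 or PHF8. There was 1 library and 1 peak table per condition, so no difference below could be set against replicate error, and no test between conditions was made.

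Ribosomal protein genes are among the most strongly transcribed genes of dividing cells, and their products are made in equal amounts for assembly with ribosomal RNA in the nucleolus. Most of their messenger RNAs begin with a cytosine followed by a run of pyrimidines, the terminal oligopyrimidine (TOP) motif, through which mTOR controls their translation. PHF8 is a histone demethylase. Its PHD finger reads trimethylated lysine 4 of histone H3, a mark of active promoters, and its catalytic Jumonji domain removes repressive methyl groups. By its labels, the series set out to find PHF8 targets that respond to APOC2.

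The starts of 8 genes are shown as examples: 4 genes with peaks in both libraries (RPL3, RPL35, RPL41 and RPS15) and 4 with no peak in either (RPLP0, RPLP1, RPL11 and RPSA). In the 300-base promoter window used below, the first 4 hold 32, 37, 19 and 33 CpG dinucleotides. The last 4 hold 25, 23, 16 and 22. These examples thus do not show the lower CpG number described below for genes with a peak. Each run is RefSeq sequence of GRCh38.p14 on the strand of the gene, 60 bases before the listed start and 20 bases from it. Capitals mark the TOP tract found by script: a C within 5 bases of the listed start that is followed by at least 4 pyrimidines, extended to the end of the pyrimidine run. RPS15 had no such tract at its listed start and is printed without capitals.
RPL3 (chr22:39319604-39319683, minus strand): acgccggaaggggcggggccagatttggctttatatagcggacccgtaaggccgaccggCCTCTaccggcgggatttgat
RPL35 (chr9:124861938-124862017, minus strand): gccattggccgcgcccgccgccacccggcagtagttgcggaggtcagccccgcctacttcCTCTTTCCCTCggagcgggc
RPL41 (chr12:56116573-56116652, plus strand): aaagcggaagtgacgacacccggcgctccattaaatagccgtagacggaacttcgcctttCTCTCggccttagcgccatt
RPS15 (chr19:1438336-1438415, plus strand): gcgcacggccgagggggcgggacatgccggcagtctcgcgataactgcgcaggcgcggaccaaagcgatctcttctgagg
RPLP0 (chr12:120201092-120201171, minus strand): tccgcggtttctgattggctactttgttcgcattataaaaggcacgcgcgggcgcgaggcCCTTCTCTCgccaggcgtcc
RPLP1 (chr15:69452758-69452837, plus strand): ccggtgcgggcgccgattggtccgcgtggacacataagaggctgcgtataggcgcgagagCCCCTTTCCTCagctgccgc
RPL11 (chr1:23691719-23691798, plus strand): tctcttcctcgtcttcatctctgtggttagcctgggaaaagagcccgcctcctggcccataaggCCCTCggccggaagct
RPSA (chr3:39406660-39406739, plus strand): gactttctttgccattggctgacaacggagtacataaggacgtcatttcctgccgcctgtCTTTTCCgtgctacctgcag

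A gene was counted as occupied when the midpoint of a peak lay within 1 kb of its annotated start or end. By this rule 38 of the 73 ribosomal protein genes had a PHF8 peak in the APOC2 library (52.1%, 95% Wilson interval 40.8 to 63.1%), beside 24.7% of all autosomal protein-coding genes. In the vector library 12 did (16.4%, 9.66 to 26.6%), beside 6.19% of all. The same 12 were occupied in both libraries (background 6.08%), 26 in the APOC2 library alone (35.6%, background 18.6%), none in the vector library alone, and 35 in neither. The intervals cover counting error over genes only. The number of occupied genes was 3.17 times as large in the APOC2 as in the vector library among ribosomal protein genes and 3.99 times as large among all coding genes. Both shares of the ribosomal protein genes thus stood above the background. The ratio between libraries was below that of coding genes in general, but it rests on 12 vector genes. With a fold enrichment of at least 5 required, 24 APOC2 and 5 vector genes stood beside 2787 and 640 coding genes. There the order of the ratios was reversed. Under the other settings with a computed background it was kept.

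**Figure D1:**
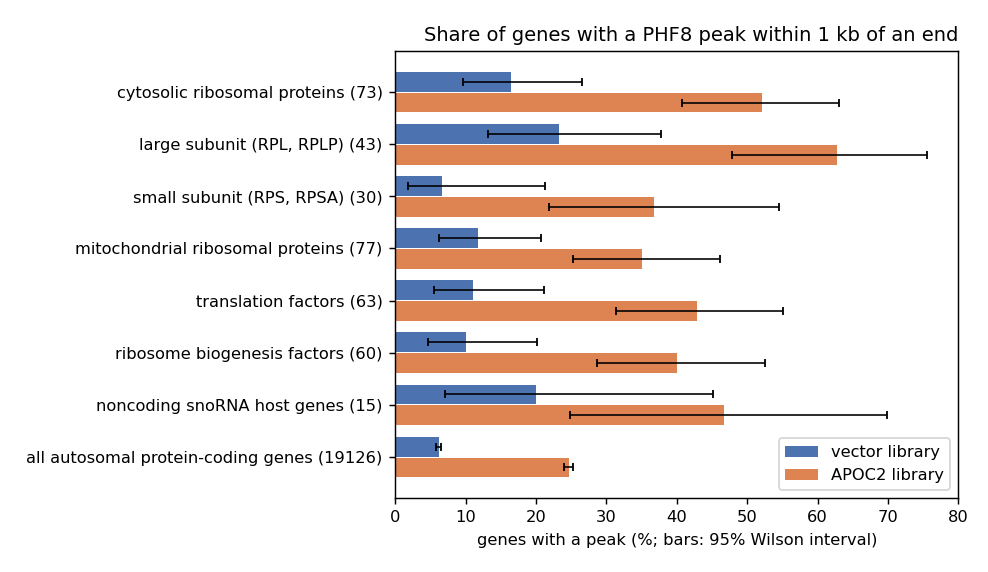
Share of genes with a PHF8 peak within 1 kb of the gene start or end, in percent, for each gene list (number of genes in parentheses) in the vector and APOC2 libraries. Bars give the share and lines the 95% Wilson interval; cytosolic ribosomal protein genes are at 16.4% and 52.1%, all coding genes at 6.19% and 24.7%.

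The tables themselves held 4015 vector and 8928 APOC2 peaks, with the authors' fold enrichment over local background, the pileup of fragments at the summit and a q-value for each. Read totals were not given. The spacing of the local backgrounds of the APOC2 table, 0.8325, shows the factor by which its control had been scaled down to it, while the vector pileups were multiples of 0.98945. Provided that both were set against one control, fewer reads went into the APOC2 library. A gene without a peak is one where no enrichment passed the authors' threshold at an unknown depth, not one shown to lack PHF8. As a check of the labelled cell type, peaks were counted at 9 colon epithelial, 3 lymphocyte and 3 fibroblast markers. In the APOC2 library KRT8, KRT18 and CDX2 had a peak. These are 33.3% of the epithelial markers, against 24.7% of all coding genes. The other 6 epithelial markers and all lymphocyte and fibroblast markers had none. The lists are too short to be told from that background. A PHF8 peak is no measure of expression, so this does not establish the cell type.

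Length set the genes apart from the background: their median length was 4799 bp, against 24476 bp for all coding genes. Short genes were occupied less often in general. Among coding genes of at most 10 kb, 15.7% had a peak in the APOC2 library and 3.89% in the vector library. Of the 64 ribosomal protein genes of that length, 54.7% and 18.8% did. Listed transcription start sites were then counted alone, without gene ends and without chromosome 8. In the APOC2 library 28 of 58 ribosomal protein genes with a listed start had a peak (48.3%, background 26.4%). In the vector library 9 did (15.5%, background 6.22%). The strength of the peaks did not stand out in the same way. The median fold enrichment of the strongest APOC2 peak per gene was 5.5 (order-statistic interval 4.67 to 6.01) over the 38 ribosomal protein genes and 5.41 (5.34 to 5.44) over all 4715 occupied coding genes. Only 7 of the 38 (18.4%) exceeded the upper quartile of those genes, 6.93. In the vector library the medians were 4.12 (3.37 to 6.93) and 5.18 (5.08 to 5.28).

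The subunits differed in their counts, by an amount that depended on the setting. In the APOC2 library 27 of the 43 large-subunit genes (62.8%, 47.9 to 75.6%) and 11 of the 30 small-subunit genes (36.7%, 21.9 to 54.5%) had a peak. In the vector library 10 (23.3%, 13.2 to 37.7%) and 2 (6.67%, 1.85 to 21.3%) did. All coding genes were at 24.7% in the APOC2 and 6.19% in the vector library. These backgrounds lay within the intervals of the small subunit and below those of the large subunit. The intervals of the subunits overlap in each library, and the difference was not tested. In the APOC2 library all 6 large-subunit genes of chromosomes 8 and 9 were occupied and neither small-subunit gene there (RPS20 and RPS6) was. Of all coding genes, 40.4% on chromosome 8 and 39.6% on chromosome 9 had an APOC2 peak. Outside these chromosomes the APOC2 shares were 56.8% of 37 (40.9 to 71.3%) and 39.3% of 28 (23.6 to 57.6%). The background there, 23.4%, was below both intervals. With a fold enrichment of at least 5 required, 18 large-subunit (41.9%) and 6 small-subunit genes (20%, 9.51 to 37.3%) remained in the APOC2 library (background 14.6%). When the peak had to overlap the gene boundary, 13 large-subunit (30.2%, 18.6 to 45.1%) and 7 small-subunit genes (23.3%, 11.8 to 40.9%) remained (background 8.87%). Whether the small-subunit interval held the background thus depended on the setting.

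**Figure D2:**
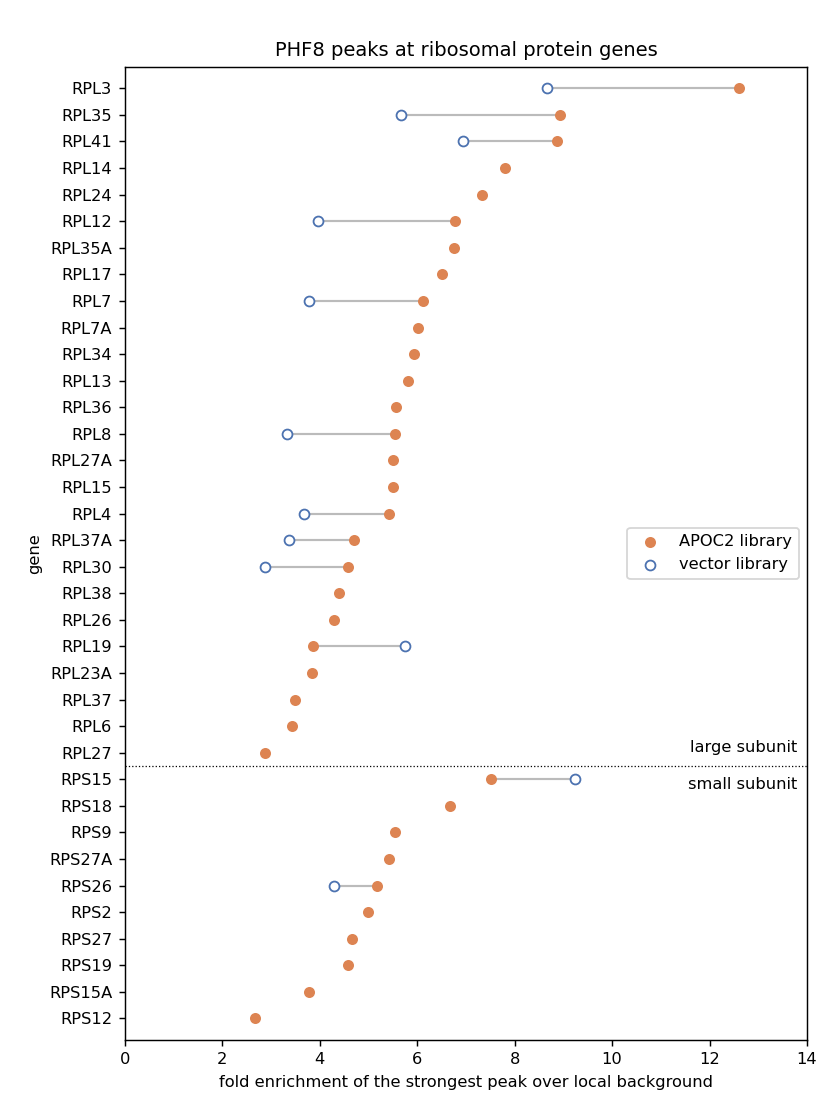
Fold enrichment over local background of the strongest PHF8 peak at 36 of the 38 occupied ribosomal protein genes, APOC2 library (filled) and vector library (open), joined by a line where both exist. The large-subunit genes range from 2.87 (RPL27) to 12.6 (RPL3) and the small-subunit genes from 2.67 (RPS12) to 7.51 (RPS15) in the APOC2 library.

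The role groups of this and the following paragraphs hold 2 to 8 genes each and were formed after the peaks had been seen. Their counts therefore describe single genes and give no result about regions of the ribosome. The background for each is 24.7% of coding genes in the APOC2 and 6.19% in the vector library. Around the peptidyl transferase centre, where peptide bonds form, both genes examined had peaks in both libraries. RPL3, whose protein reaches toward this centre, had the strongest peak of all ribosomal protein genes in the APOC2 library. Its peak covered the start of the gene on chromosome 22 (39319200 to 39319634 in the vector table, 39319152 to 39319640 in the APOC2 table). The fold enrichment was 8.66 with a pileup of 33.6 in the vector library and 12.6 with a pileup of 43 in the APOC2 library. RPL8, on chromosome 8, had 3.33 with vector and 5.55 with APOC2. Its peak was 322 bp long in the vector table (144792088 to 144792409) and 799 bp long in the APOC2 table (144792094 to 144792892). Both crossed the gene boundary at 144792390, and the APOC2 peak reached further beyond it.

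Nascent chains leave the ribosome and targeting factors dock at the polypeptide exit tunnel and its rim. Of its 8 genes examined, 6 were occupied in the APOC2 library (background 24.7%) and 3 in the vector library (background 6.19%). RPL35, at the rim, had a fold enrichment of 5.66 with vector and 8.94 with APOC2, with pileups of 37.6 and 55. The APOC2 peak (chromosome 9, 124861563 to 124862384) was 822 bp long against 271 bp in the vector table, and a boundary of ARPC5L lay 156 bp from its midpoint. RPL19 was one of the 2 paired genes with a lower fold enrichment in the APOC2 library: 5.74 in the vector library (chromosome 17, 39200309 to 39200650, pileup 27.7) and 3.87 in the APOC2 library (39200343 to 39200561, pileup 19). RPL4 lines the tunnel constriction, but its peak, with 3.68 and 5.42, lay nearer to a boundary of ZWILCH (83 bp with vector, 111 bp with APOC2) than to its own. RPL17, the other constriction protein, had 6.51 in the APOC2 library alone, RPL26 had 4.3 and RPL23A, the docking site of the signal recognition particle, 3.84. RPL22 and RPL31, the remaining rim genes, had no peak.

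The P stalk recruits translational GTPases to the ribosome. Its 3 stalk genes RPLP0, RPLP1 and RPLP2 had no peak in either library. Only RPL12, the protein of the stalk base, was occupied, with 3.96 (vector) and 6.77 (APOC2) (chromosome 9, 127451107 to 127451370 and 127451136 to 127451504), in a region where LRSAM1 also has a boundary within 1 kb. The 5S ribonucleoprotein genes RPL5 and RPL11, whose products bind MDM2 and stabilise p53 when ribosome assembly fails, had no peak either. Both are genes in which mutations cause Diamond-Blackfan anaemia. RPL5 lies on chromosome 1 at 92831986 to 92841924 and RPL11 on the same chromosome at 23691779 to 23696835.

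Of the other large-subunit genes occupied in both libraries, RPL41, which encodes the shortest ribosomal protein, had 6.93 with vector and 8.86 with APOC2 (chromosome 12, 56116608 to 56116874 and 56116629 to 56116929). Its pileups were low, 19.8 and 22, over backgrounds of 2 and 1.6. RPL37A had 3.37 and 4.7 (chromosome 2, 216498851 to 216499092 and 216498797 to 216499070), beside its divergent transcript RPL37A-DT. RPL7 (3.78 and 6.12) and RPL30 (2.87 and 4.57) lie on chromosome 8. The RPL7 peak had its midpoint 95 bp (vector) and 58 bp (APOC2) from a boundary of RDH10, nearer than to RPL7. In the APOC2 library alone, RPL14 (7.81), RPL24 (7.34) and RPL35A (6.75) were among the strongest. RPL24 forms a bridge between the subunits, and RPL35A is a Diamond-Blackfan anaemia gene. The pileup was 38 at RPL14, 21 at RPL24 and 17 at RPL35A, so the last rested on few fragments over a background of 1.66.

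Further large-subunit genes with an APOC2 peak alone lay between 2.87 and 6.01. They were RPL7A (6.01), RPL34 (5.93), RPL13 (5.81), RPL36 (5.57), RPL15 and RPL27A (both 5.5), RPL38 (4.39), RPL37 (3.5), RPL6 (3.43) and RPL27 (2.87). The RPL6 peak lay 208 bp from a boundary of PTPN11 and its summit was at -7624 bp from the nearest listed start of RPL6, so it was counted through the annotated gene boundary and not through a listed start.

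In the small subunit, RPS15 had the strongest peak, and like RPL19 it had a lower fold enrichment in the APOC2 library. The value was 9.23 in the vector library (chromosome 19, 1438409 to 1438764) and 7.51 in the APOC2 library (1438388 to 1438698). The pileups were 47.5 and 44, or 52.9 in the APOC2 library after scaling to the depth of the control, so the direction at RPS15 depended on the scale. RPS26, at the mRNA exit, had 4.29 with vector and 5.17 with APOC2 (chromosome 12, 56041934 to 56042382 and 56041915 to 56042439). No other small-subunit gene had a vector peak.

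Genes of the small-subunit head with a peak included RPS18 and RPS19 in addition to RPS15. RPS18 had 2 APOC2 peaks. The stronger one, 6.67, was centred nearer to a boundary of VPS52, and the other, 4.5, had its summit 190 bp downstream of the RPS18 start. RPS19, the gene most often mutated in Diamond-Blackfan anaemia, had 4.57 in the APOC2 library alone, with a pileup of 21 (chromosome 19, 41860247 to 41860464). RPS16, also of the head, had none. At the mRNA entry, RPS9 had 5.54 and RPS2 had 5 in the APOC2 library, the latter at a peak within 18 bp of SNORA78 in the neighbouring snoRNA host gene SNHG9. A second RPS2 peak, with 3.35, was nearer to RPS2 itself. RPS3, also at the entry, had no peak, nor had RPS14 and RPS28 at the exit.

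Further small-subunit genes with an APOC2 peak alone were RPS27A (5.42), which encodes a fusion with ubiquitin, RPS27 (4.67), RPS15A (3.79) and RPS12 (2.67). RPS12 had the weakest peak of all 38, with a -log10 q of 1.35, near the limit of the table. RPS6, the substrate of the S6 kinases, RPSA, the laminin receptor precursor, and RPS14, the gene behind the anaemia of the 5q- syndrome, had no peak. The genes without a peak in either library also included RPL9, RPL10A, RPL13A, RPL18, RPL21, RPL23, RPL28, RPL29, RPL32, RPS3A, RPS7, RPS10, RPS13, RPS20, RPS21, RPS23, RPS24, RPS25 and RPS29.

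At the 12 genes with peaks in both libraries, the vector and APOC2 peaks overlapped in every case. The ratio of the APOC2 to the vector fold enrichment, in log2 units, was above 0 at 10 of 12, with a median of 0.55 (order-statistic interval 0.27 to 0.70). Over all 1155 paired autosomal coding genes the median was 0.52 (0.48 to 0.54), and 89.2% were above 0. The paired ribosomal protein genes were therefore not distinguished from other paired genes by this ratio. The highest ratios were at RPL12 (0.77), RPL8 (0.74), RPL7 (0.70), RPL30 (0.67) and RPL35 (0.66), which are the 5 paired genes on chromosomes 8 and 9. The lowest were at RPL19 (-0.57), RPS15 (-0.30), RPS26 (0.27), RPL41 (0.35) and RPL37A (0.48), and RPL3 (0.54) and RPL4 (0.56) lay between. With pileups scaled to the control depth, 11 of 12 were above 0, the median was 0.52, RPS15 had 0.15 and RPL19 -0.28. The order by chromosome was not kept on that scale: RPL8 (1.02) and RPL35 (0.81) were still highest, but RPL3 (0.62) came next and RPS26 (0.54) stood above RPL12 (0.50).

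**Figure D3:**
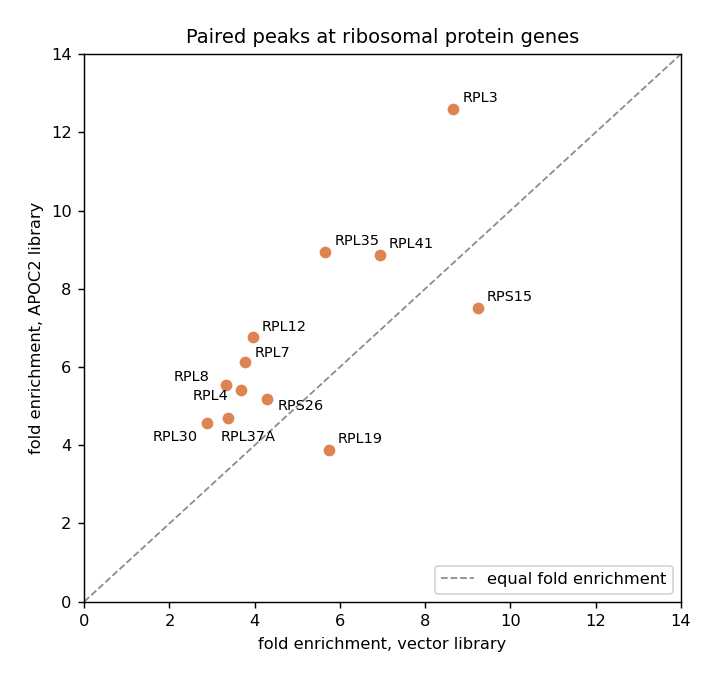
Fold enrichment of overlapping peaks at 12 ribosomal protein genes in the vector library (horizontal) and the APOC2 library (vertical), 1 point per gene, with the line of equal values dashed. RPL19 and RPS15 lie below the line and the other 10 genes above it.

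Chromosome moved with the result. Chromosomes 8 and 9 hold 8 ribosomal protein genes, and 5 of the 12 occupied in the vector library were among them (3 of 4 on chromosome 8, 2 of 4 on chromosome 9). Coding genes of these chromosomes in general were occupied more often in the vector library, 26.7% on chromosome 8 and 21.1% on chromosome 9, against 4.7% on the other autosomes. Outside both chromosomes 7 of 65 ribosomal protein genes (10.8%) were occupied in the vector library and 32 (49.2%) in the APOC2 library, where 23.4% of coding genes were. The median log2 ratio of fold enrichment of the 7 pairs there was 0.35 (order-statistic interval -0.57 to 0.56), and that of 805 paired coding genes there was 0.48 (0.43 to 0.52), within the interval of the 7. The difference between chromosomes was given as counts and not tested.

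Summits were compared with the listed starts, which give the direction of transcription for 58 of the 73 genes. Of the 28 with an APOC2 peak at a start, 23 had the summit downstream (82.1%), and 22 of these within 300 bp (78.6% of 28). The median position was 114 bp downstream (order-statistic interval 74 to 150). Over 3994 coding genes it was 123 bp (120 to 127), with 72.8% downstream. At RPL3 the summit lay 196 bp (vector) and 226 bp (APOC2) downstream, at RPS15 185 and 150 bp, at RPL35 169 and 200 bp, and at RPL41 69 and 171 bp. The peaks of ribosomal protein genes were thus placed like those of other genes, on the transcribed side of the start. Whether this is exon or intron was not determined, since the gene table gives no exons. At RPS27A and RPL15 the summits lay 88 and 130 bp downstream of a listed start inside the gene, while the peak midpoints were 890 and 737 bp from the annotated gene boundary.

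**Figure D4:**
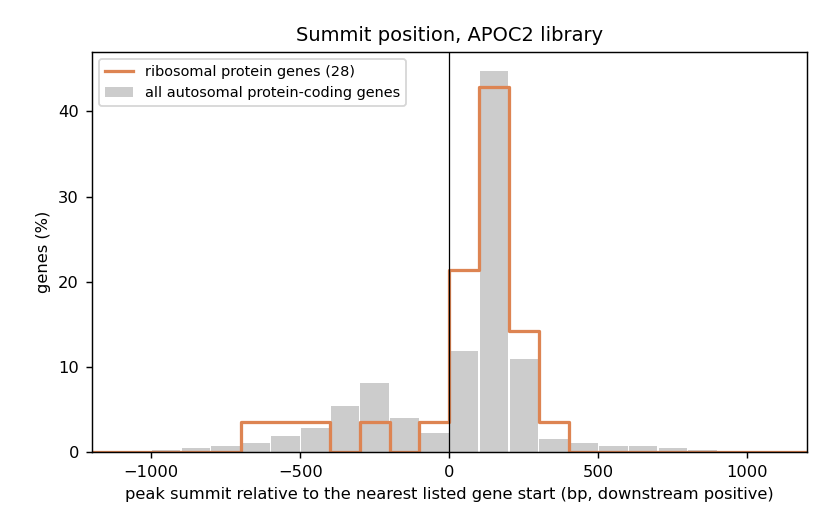
Position of the peak summit relative to the nearest listed gene start in base pairs (downstream positive), APOC2 library, in bins of 100 bp as percent of genes. The outline shows 28 ribosomal protein genes and the grey bars 3994 autosomal coding genes, both without chromosome 8. Both are highest between 100 and 200 bp downstream.

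Of the 38 strongest APOC2 peaks, 10 had a boundary of another coding gene within 1 kb, and 6 were nearer to another gene's boundary than to the ribosomal protein gene's own (RPL4, RPL6, RPL7, RPS2, RPS18 and RPS27A). Genes inside the ribosomal protein gene itself, such as snoRNA genes, and read-through genes were not counted as others. When peaks were counted only where the own boundary was nearest, 34 genes in the APOC2 library (46.6%, against 20.2% of all coding genes under the same restriction) and 10 in the vector library (13.7%, against 4.91%) were occupied.

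The promoter window of 300 bases (250 before the listed start and 50 from it) was then compared between genes with and without a peak, because the sequences were not used to choose the genes. Genes of chromosome 8 were left out, also from the coding genes in general. PHF8 peaks in this data set favoured promoters rich in CpG among coding genes in general. In the lowest of 3 classes by CpG number (0 to 14 in the window) 6.82% of coding genes had an APOC2 peak, in the middle class (15 to 28) 30.5% and in the highest class 39%. Ribosomal protein genes went the other way: 8 of 9 in the lowest class (88.9%), 15 of 33 in the middle class (45.5%) and 6 of 16 in the highest class (37.5%). The median CpG number was 19 in the 29 with an APOC2 peak and 26 in the 29 without one, against 29 over 3819 coding genes with an APOC2 peak and 22 over 15101 coding genes. The 9 genes of the lowest class were RPL4, RPL6, RPL15, RPL17, RPL19, RPL35A, RPS27 and RPS27A, all with a peak, and RPL32 without. RPL4, RPL15, RPL19 and RPS27 had 14 CpG, the upper edge of the class, so its share depends on the cut. A peak at either end of the gene was counted, also for coding genes in general. The peaks of RPL4, RPL6 and RPS27A were nearer to another gene's boundary than to the annotated boundary of their own gene. At RPS27A the summit was nonetheless 88 bp downstream of a listed start of RPS27A. Without RPL4, RPL6 and RPS27A, 5 of 6 in this class had a peak. These numbers are for the first listed start of each gene, which need not be the start at the peak: at RPL15 and RPS27A the peak lay at a later one. At RPL6 the summit was at -7624 bp from the nearest listed start, so no listed window lay at the peak. With the listed window richest in CpG taken for each gene, the shares were 4 of 5 (80%), 18 of 36 (50%) and 7 of 17 (41.2%), against 5.13%, 29.3% and 37.1% of all coding genes, and the median CpG number was 22 with and 26 without an APOC2 peak. The classes hold few ribosomal protein genes and the difference was not tested.

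**Figure D5:**
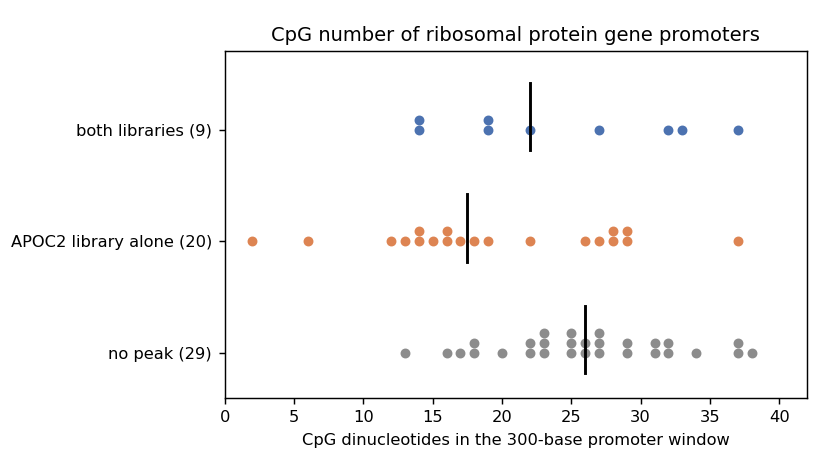
Number of CpG dinucleotides in the 300-base promoter window of 58 ribosomal protein genes, grouped by peaks in neither library, the APOC2 library alone or both libraries; each point is a gene and the vertical line is the median. Genes without a peak have a median of 26, and the group with a peak in the APOC2 library alone includes the lowest values. These are RPL6 (2) and RPS27A (6), whose first listed start was not at the peak.

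The TOP tract, defined as above and counted at any listed start of a gene, was found in 50 of 58 ribosomal protein genes (86.2%) and in 28% of all coding genes. It was present in 23 of the 29 with an APOC2 peak and 27 of the 29 without one. Short motifs were searched on both strands of the window of the first listed start only. TCTCGCGA occurred in 11 of 58 ribosomal protein promoters (19%) against 1.71% of all, in 8 of the 29 with and 3 of the 29 without a peak. The ETS letters CCGGAAG occurred in 20 (34.5% against 14.4%), in 7 with and 13 without a peak. The YY1 letters AAGATGGC were found in 10.3% against 3.91%. The GC box GGGCGG (53.4% against 58.9%), CCAAT (34.5% against 36%), TATAAA (8.62% against 9.71%), CACGTG (5.17% against 8.77%) and the NRF1 letters GCATGCGC (5.17% against 4.19%) were found at shares near those of all promoters. A match describes the letters of the window and not a bound factor.

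Ribosomal protein genes have many processed pseudogenes, whose sequence resembles their exons. RefSeq lists 1892 such autosomal pseudogenes by symbol. In the APOC2 library 6 of them (0.317%) had a peak within 1 kb of a boundary, and at 1 of these, RPSAP52, no other gene had a boundary within 1 kb. In the vector library 1 did. The number of pseudogenes per gene had a median of 11.5 for genes with peaks in both libraries, 20.5 for those with a peak in the APOC2 library alone and 13 for those without a peak. RPL21, with 137 the richest in pseudogenes, had no peak, and RPL23A, with 95, had one. How reads with several matches were treated is not given in the sources used here. Small nucleolar RNA genes lie inside 27 of the 73 genes. Of these 14 (51.9%) had an APOC2 peak, as had 24 of the 46 without one (52.2%).

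Other genes of the translation machinery were counted by the same rule. Peaks in the APOC2 library were found at 27 of 63 translation factor genes (42.9%), led by EIF4G1 (10.2), the scaffold of the cap-binding complex, EIF4E1B (9.47) and EIF3L (7.72), and in the vector library at 7. Ribosome biogenesis factors had 24 of 60 (40%) and 6, led by BOP1 (14.6), RRP7A (13.9) and NOB1 (9.22). Mitochondrial ribosomal protein genes had 27 of 77 (35.1%, 25.3 to 46.2%) and 9, led by MRPS28 (9.24), MRPL20 (8.67) and MRPL50 (8.29). Noncoding snoRNA host genes had 7 of 15 (46.7%) and 3, led by SNHG7 (12.3), SNHG8 (8.35) and SNHG6 (8.31). All of these shares were above the 24.7% and 6.19% of coding genes in general, and their intervals overlapped those of the cytosolic ribosomal protein genes. In the vector library the intervals of translation factors (11.1%, 5.49 to 21.2%) and biogenesis factors (10%, 4.66 to 20.1%) included the background. Those of mitochondrial ribosomal protein genes (11.7%, 6.27 to 20.7%) and snoRNA host genes (20%, 7.05 to 45.2%) began just above it. Of the 16 relatives outside the rule, RPS4X, with 8.52 in the APOC2 and 6.73 in the vector library, was occupied in both, and RPL36AL (5.25) and RPL7L1 (4.18) in the APOC2 library alone. FAU, which encodes a ribosomal protein fused to a ubiquitin-like protein, had no peak.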

How the data were processed

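The data were 2 PHF8 ChIP-seq libraries from RKO cells, grouped by the treatment in the labels. The submitters' processing notes name hg38, Bowtie2 2.2.9, MACS2 2.0 and HOMER without their roles. The control library, thresholds and duplicate handling are not given in the sources used here. Per the file headers, the deposited tables give the pileup signal at each summit and the fold enrichment (ratio) over local background. The authors' -log10 p-values and q-values stand in columns whose names were lost and were recognised by place and value. The highest q-value was 0.0266 for vector and 0.045 for APOC2.

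Peaks were assigned with Python 3.11.15, pandas 2.3.3 and scipy 1.17.1 to genes of a RefSeq table (GRCh38.p14), and the assignment was tested on simulated data. Pairs overlapped by at least 1 bp, and each gene took the pair with the highest APOC2 fold enrichment. Local background was computed as (pileup + 1) / fold enrichment - 1. Depth-scaled pileup was APOC2 pileup divided by 0.8325, a step of which 63.8% of APOC2 backgrounds between 1.5 and 15 were multiples within 0.01 steps. Intervals are 95%. Listed starts, strands and sequences came from a RefSeq promoter table, used without chromosome 8. This leaves out RPL7, RPL8, RPL30 and RPS20. Shares and medians of all coding genes by listed start or promoter window leave out that chromosome as well. Starts were available for 58 of the 73 genes. The other 15, among them RPL5, RPL7, RPL8, RPL23, RPL23A, RPL30, RPL37, RPS2, RPS15A and RPS20, enter the peak counts but have no start distance or promoter sequence here.

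Genes named with values were those with a vector peak, the 10 strongest in the APOC2 library, the 5 highest and 5 lowest ratios, 10 genes chosen by role, and the 3 strongest of each other list; the remaining occupied genes were added. Some genes that enter the counts are not reported here by name. The genes and lists were chosen with earlier results of these data known, and the role groups after the peaks had been seen.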

Additional observations from a re-analysis of the deposited data

How the results depend on the processing

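No paired analysis was possible because each condition had 1 library, and no replicate could be left out. A count beyond 1.5 times its reported value, or a median outside its interval, was taken as changed. The 12 vector, 38 APOC2, 26 APOC2-alone and 12 shared genes became 4, 20, 16 and 4 when the peak had to overlap the gene boundary (background 1.52% vector and 8.87% APOC2). Requiring 5-fold enrichment or more, the vector, APOC2 and shared counts were 5, 24 and 4 (background 3.35% and 14.6%), and the APOC2 median was 6.06. With equal numbers of top-ranked peaks there were 23 APOC2 and 12 APOC2-alone genes (APOC2 background 13%). Without chromosomes 8 and 9 there were 7 vector and 7 shared genes. Peaks with no other gene boundary within 1 kb, chosen after seeing the data, gave 6, 23, 17 and 6 (background 3.06% and 12.8%). The median log2 ratio was 0.26 with raw pileup, whose units are of unequal depth, and 0.76 with -log10 p. RPS15 reversed to 0.15 with depth-scaled pileup. In all, 38 recomputed counts and medians stayed the same and 18 changed. A ratio of a single gene was called the same if it kept its sign and stayed within the 95% counting error of its pileups. By this wide criterion 35 of 36 stayed the same. With raw pileup RPL12 nonetheless moved from 0.77 to 0.23 and RPL37A from 0.48 to 0.10, while RPL8 went from 0.74 to 0.75. Unless the alternative itself removes peaks or genes, the cause was not tested. The unknown read depth limits every statement on genes without a peak.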
